A study of Homo sapiens with 6 samples.

Results

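The oligosaccharyltransferase (OST) subunits were examined as the 10 rows of the expression table that carry the gene names STT3A, STT3B, RPN1, RPN2, DDOST, DAD1, OSTC, TUSC3, MAGT1 and KRTCAP2, out of 58735 genes listed. Messenger RNA had been sequenced from Hep-G2, an established human liver cancer line, in 6 libraries. The control libraries (sh-NC, n = 3) carried a control hairpin and are labelled WT, and the others (sh-CLGN, n = 3) carried a hairpin against CLGN, which encodes the endoplasmic reticulum (ER) chaperone calmegin. Hairpins were delivered by lentivirus and cells were selected with puromycin in both groups, and the labels give the same batch entry (0DAY) for every library. Each group rests on 1 hairpin, so a difference between hairpins or cultures cannot be told apart from the loss of CLGN. The labels do not say whether libraries came from separate cultures, so p-values measure only the spread between these libraries, which may be technical.

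OST is the membrane enzyme of the ER that moves a preassembled sugar tree from its lipid carrier, dolichol, onto asparagine residues of growing proteins. Each complex holds a single catalytic subunit, STT3A or STT3B, on a shared base of RPN1, RPN2, DDOST, DAD1, OST4 and TMEM258. The STT3A complex sits at the translocon and glycosylates chains as they enter, through OSTC and KRTCAP2, whereas the STT3B complex reaches sites that were skipped and carries an oxidoreductase, MAGT1 or TUSC3. Hepatocytes depend on this step for most of the plasma proteins they secrete, and calmegin belongs to the lectin chaperones that bind the glycans OST attaches.

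CLGN was read first to check the labels. Its level was 24.1, 21.0 and 26.1 FPKM (fragments scaled to gene length and library size) in sh-NC against 9.48, 8.88 and 8.60 FPKM in sh-CLGN. This left 37.8% of the control mean, a change of -1.31 on the log2(FPKM + 1) scale (SE 0.0807, limma adjusted p = 8.35e-06). Depth was similar, with 14955816 to 16244639 reads in sh-NC against 15086344 to 15675776 in sh-CLGN. The hepatocyte identity in the labels was checked with 9 markers, all of which were above 1 FPKM in every library. Of these 5 were lower on the log2 scale, namely TF (-1.62), ALB (-0.90), SERPINA1 (-0.33), APOB (-0.32) and HNF4A (-0.30). Another 3 were higher, namely FGB (0.72), TTR (0.58) and AFP (0.50), and 1, APOA1, was not called. The summed level of 7069 to 7306 FPKM in sh-NC against 7171 to 7635 in sh-CLGN thus joins opposite changes. Of 8 fibroblast markers 5 were tested and were higher in sh-CLGN, but COL1A1, COL3A1 and LUM passed the filter only through the sh-CLGN libraries. The summed level of 7.17 to 8.51 against 48.5 to 49.9 FPKM was mostly COL1A2, at a mean of 38.7 FPKM in sh-CLGN, while DCN and THY1 had at most 3 reads in any library. Of 5 leukocyte markers 2 were tested and were lower (summed level 69.9 to 77.7 against 61.1 to 68.4 FPKM, almost all of it LYZ), of which CD14 passed the filter only through the sh-NC libraries, and CD3E and CD68 had no more than 3 reads. Of 4 endothelial markers 1 was tested and was lower (3.33 to 3.67 against 2.38 to 2.65 FPKM), with KDR at 0 reads. The mitochondrial genome took 3.25% to 4.02% of the reads in sh-NC against 5.49% to 5.80% in sh-CLGN. The part of these shifts in the results on OST was not tested.

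OST subunits split in both directions in sh-CLGN cells. STT3A, DDOST, RPN1 and RPN2 were lower, at 61.1%, 71.1%, 81.0% and 86.2% of the control mean. DAD1, OSTC and STT3B were higher, at 125%, 119.6% and 112%, and KRTCAP2, which had few reads, was higher at 209%. MAGT1 was not called, and TUSC3 was too low to test. Thus 4 of the 9 tested members were lower, beside 39.0% of all 13074 tested genes, and 4 were higher, beside 26.7% of all. The 4 that were higher include KRTCAP2, which would have passed the filter of 1 FPKM in 3 libraries through the sh-CLGN libraries alone. No member also passed an absolute log2 fold change of 1 on the log2(FPKM + 1) scale, a rule that 6.28% of all genes met, although KRTCAP2 did with a pseudocount of 0.1 (1.04) and with voom (1.13). The libraries of the groups did not overlap in any of the 9 tested members, but the same held for 70.2% of all genes. The median log2 fold change of the tested members was -0.10, against -0.08 over all genes. Scaling altered the counts both among the members and over all genes. After quantile normalization 2 members were lower and 4 higher, beside 32.5% and 30.2% of all genes. With scaling by read totals 2 were lower and 4 higher, beside 25.9% and 38.3% of all genes. As TPM 3 were lower and 4 higher, beside 22.3% and 31.3% of all genes. In these bulk libraries, fewer cells expressing a gene and less RNA per cell cannot be told apart.

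**Figure D1:**
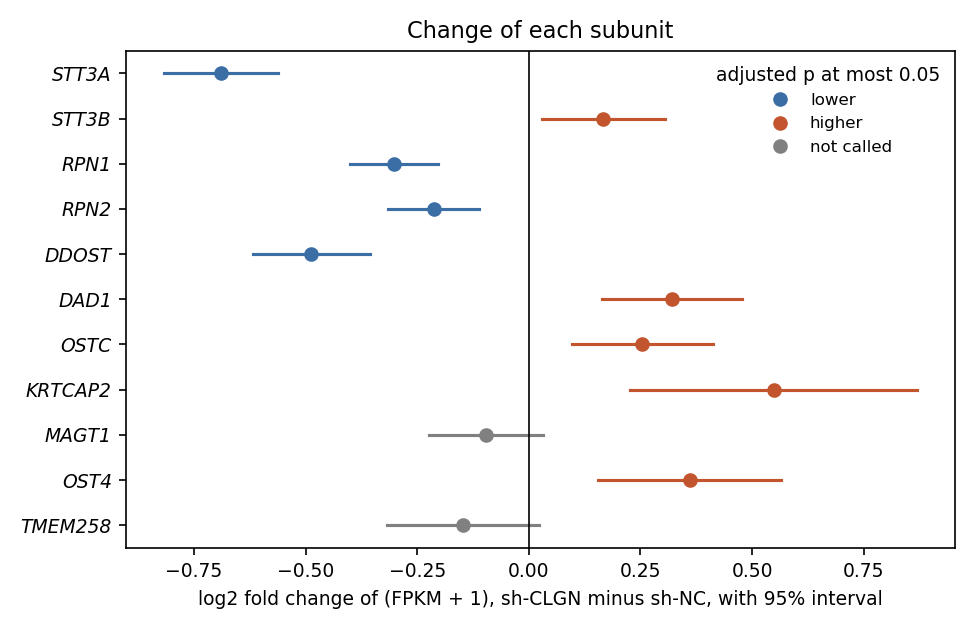
Log2 fold change of (FPKM + 1) of each OST subunit, sh-CLGN minus sh-NC, with its 95% interval from limma (n = 3 libraries per group, colours show the call at an adjusted p of at most 0.05). STT3A lies farthest below 0 (-0.69), and the intervals of MAGT1 and TMEM258 include 0. The points of RPN1, RPN2, MAGT1 and TMEM258 move to the other side of 0 under quantile normalization.

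Promoter sequences are shown for the 4 members that kept their call under every setting tried and had a window in the promoter set used here. That set (RefSeq, GRCh38.p14) held windows for 7 of the 10 members. KRTCAP2 was left out because its count is uncertain. STT3A and DDOST were lower and DAD1 and OSTC higher, and the window of each runs from 250 bases before to 50 bases after the annotated start. Capitals mark CCAAT, the core of the box bound by the factor NF-Y, and ACGTG, a core shared by the sites of several bZIP and bHLH factors of the ER stress and nutrient responses, each on either strand.
STT3A promoter, chr11:125592602-125592901, plus strand, lower in sh-CLGN: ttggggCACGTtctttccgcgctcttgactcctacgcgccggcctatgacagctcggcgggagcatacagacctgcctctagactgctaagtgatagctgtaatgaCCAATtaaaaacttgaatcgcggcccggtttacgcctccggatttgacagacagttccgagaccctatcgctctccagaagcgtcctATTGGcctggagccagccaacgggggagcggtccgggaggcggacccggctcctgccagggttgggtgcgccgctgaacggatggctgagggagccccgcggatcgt
DDOST promoter, chr1:20661320-20661619, minus strand, lower in sh-CLGN: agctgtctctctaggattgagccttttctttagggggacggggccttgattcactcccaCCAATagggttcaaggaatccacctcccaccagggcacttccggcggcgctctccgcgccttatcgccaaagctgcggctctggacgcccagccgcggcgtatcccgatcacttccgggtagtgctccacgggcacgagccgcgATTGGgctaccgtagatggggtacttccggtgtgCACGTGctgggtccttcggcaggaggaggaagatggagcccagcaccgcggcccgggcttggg
DAD1 promoter, chr14:22589175-22589474, minus strand, higher in sh-CLGN: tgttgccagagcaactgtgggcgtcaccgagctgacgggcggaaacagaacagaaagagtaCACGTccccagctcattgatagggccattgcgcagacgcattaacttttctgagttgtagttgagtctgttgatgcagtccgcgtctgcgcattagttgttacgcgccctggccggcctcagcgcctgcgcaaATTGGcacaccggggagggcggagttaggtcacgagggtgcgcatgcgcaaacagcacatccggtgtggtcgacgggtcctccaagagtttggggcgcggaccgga
OSTC promoter, chr4:108650349-108650648, plus strand, higher in sh-CLGN: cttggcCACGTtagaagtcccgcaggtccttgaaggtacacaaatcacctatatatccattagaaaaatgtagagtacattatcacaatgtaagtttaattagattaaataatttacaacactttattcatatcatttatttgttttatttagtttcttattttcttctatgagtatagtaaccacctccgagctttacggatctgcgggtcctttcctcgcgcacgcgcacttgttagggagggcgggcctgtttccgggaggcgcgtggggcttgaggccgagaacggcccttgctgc

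CCAAT occurred 2 times in the windows of STT3A and DDOST, 1 time in that of DAD1 and 0 times in that of OSTC. ACGTG occurred 1 time in STT3A, DAD1 and OSTC, and 2 times in DDOST, where both overlap in the palindrome CACGTG. Of the 9 subunits with a window (OST4 and TMEM258 included), 5 held CCAAT, namely DAD1, DDOST, KRTCAP2, MAGT1 and STT3A, beside 34.6% of 34943 windows of the same length. ACGTG was held by 5, namely DAD1, DDOST, OSTC, STT3A and TMEM258, beside 21.4%. The ER stress response element (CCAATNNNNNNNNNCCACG, found in 0.0773% of windows) and the unfolded protein response element (TGACGTGG, in 0.730%) were each found in 0 of the 9 subunit windows. Both subunits that were lower and subunits that were higher held CCAAT and ACGTG. These matches describe letters only, and no factor was measured at these promoters.

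Between-gene levels were compared per length, on the FPKM scale. In sh-NC, RPN2 was the most abundant subunit, followed by DAD1 and DDOST, which overlapped, then RPN1 and STT3B, which overlapped, then OSTC. STT3A, TMEM258 and OST4 followed and overlapped each other in neighbouring pairs, and MAGT1, KRTCAP2 and TUSC3 closed the order. The place of KRTCAP2 is uncertain, since 83.1% of its coding bases lie in exons of another gene on the same strand. Reads that fit both genes may be missing from its count. In sh-CLGN, DAD1 reached the range of RPN2, STT3B lay above RPN1 and DDOST, which overlapped, and STT3A stood below OST4 and TMEM258. STT3A thus moved from rank 7 to rank 9 of 12, DDOST from 3 to 5 and STT3B from 5 to 3. The length used was the union of all annotated exons, of which coding sequence made up 8.83% (TMEM258) to 74.2% (RPN2). Levels of genes with long noncoding exons are therefore lowered relative to the others. The ratio of a gene's FPKM between groups does not depend on its length, but on the log2(FPKM + 1) scale a longer gene with few reads is pulled closer to 0.

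**Figure D2:**
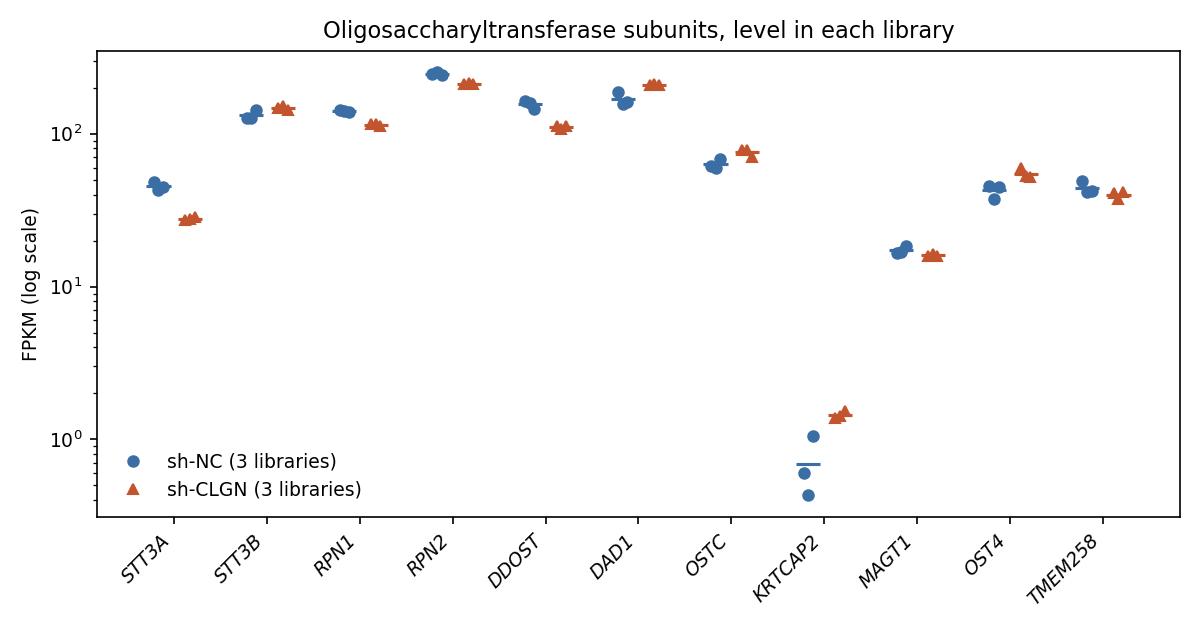
FPKM of each OST subunit in each library, on a log scale, with circles for sh-NC, triangles for sh-CLGN and bars for group means (n = 3). TUSC3, at 0 to 2 reads per library, is not drawn. Abundant subunits reach 253 FPKM, KRTCAP2 stays at or under 1.54 FPKM, and STT3A falls from between 42.7 and 48.1 to between 27.1 and 28.3 FPKM. The level of KRTCAP2 is uncertain, because reads that also fit an overlapping gene may be missing.

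The catalytic subunits moved apart. STT3A (ENSG00000134910; chromosome 11, 125591712 to 125625215, plus strand, GRCh38), which glycosylates chains during translocation, was at 48.1, 42.7 and 45.1 FPKM in sh-NC against 27.1, 27.6 and 28.3 FPKM in sh-CLGN. Every sh-CLGN library was below every sh-NC library, and the lowest control value was well above the highest knockdown value. Means were 45.3 ± 2.69 against 27.7 ± 0.612 FPKM (SD, n = 3), for a log2 difference of -0.69 (SE 0.0549, limma adjusted p = 2.54e-05), which was the largest fall among the members. It was called lower under each of the 14 alternatives, from -0.73 to -0.41. Its exons share 80 of 7393 bases with CHEK1.

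STT3B (ENSG00000163527; chromosome 3, 31532638 to 31637622, plus strand), the catalytic subunit that acts on skipped sites, was at 126, 127 and 142 FPKM in sh-NC against 148, 152 and 143 FPKM in sh-CLGN. The groups did not overlap, but the highest sh-NC library and the lowest sh-CLGN library differed by less than the SD of either group. The mean was 132 ± 8.88 against 148 ± 4.74 FPKM (SD, n = 3), a log2 change of 0.17 (95% interval 0.03 to 0.30, SE 0.0591, limma adjusted p = 0.0363). The size and the call depended on the settings. The change was 0.29 as TPM (limma adjusted p = 0.00998), 0.36 with read totals (adjusted p = 0.00151) and 0.48 after quantile normalization (adjusted p = 0.000563), and 0.098 with the GC trend removed (adjusted p = 0.0438). The call was lost on leaving out any of 4 libraries. Without sh-NC replicate 1 or 2 the adjusted p in limma was 0.0939 or 0.111, and without sh-CLGN replicate 1 or 2 it was 0.0879 or 0.134.

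Since a ratio within a library does not depend on how libraries are scaled, STT3A was also set against STT3B. The FPKM ratio of STT3A to STT3B was 0.380, 0.338 and 0.318 in sh-NC against 0.183, 0.181 and 0.198 in sh-CLGN. All 3 knockdown ratios were below all 3 control ratios. The mean ratio was 0.345 ± 0.0318 against 0.187 ± 0.00906 (SD, n = 3), a log2 difference of -0.88, with a two-sided exact permutation p = 0.1, the lowest value that this test can give with 3 libraries per group. STT3A made up 25.6% ± 1.75 of the summed catalytic FPKM in sh-NC against 15.8% ± 0.640 in sh-CLGN. The sum itself was 177 ± 9.12 FPKM in sh-NC against 175 ± 4.44 FPKM in sh-CLGN, a difference smaller than the spread of either group. The levels of the ratio, the share and the sum depend on the exonic lengths used. Coding sequence made up 28.6% of that length in STT3A and 49.4% in STT3B. Unlike the ratio, the sum depends on library scaling as well. With scaling by read totals, an alternative added after seeing the data, it was 159 to 178 in sh-NC against 183 to 195 in sh-CLGN, without overlap, and as TPM it was 577 to 656 against 640.3 to 681, with overlap.

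**Figure D3:**
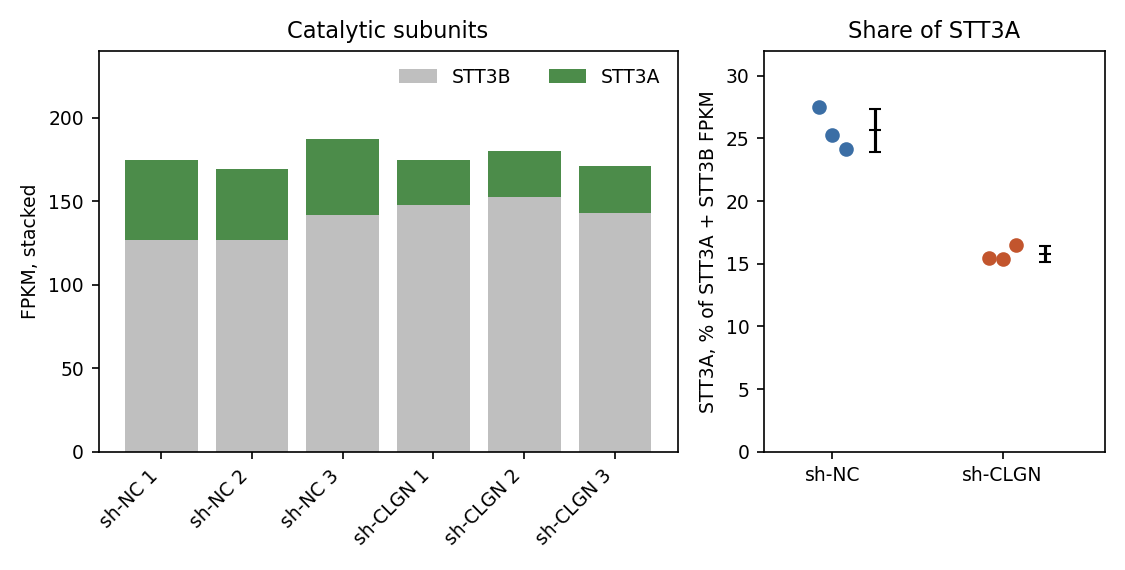
Left, FPKM of STT3B and STT3A stacked for each library, and right, STT3A as a percentage of their summed FPKM, with points for libraries and bars for mean ± SD (n = 3). On the deposited FPKM scale the stacks overlap in height (169 to 187 against 171 to 180.1 FPKM), which does not hold with scaling by read totals, while the STT3A share goes from between 24.1% and 27.5% in sh-NC to between 15.3% and 16.5% in sh-CLGN.

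The subunits particular to each complex were compared next. OSTC (ENSG00000198856; chromosome 4, 108650584 to 108667820, plus strand), which links the STT3A complex to the translocon, was at 61.9, 59.6 and 68.1 FPKM in sh-NC against 78.3, 78.2 and 70.1 FPKM in sh-CLGN. One library of each group, sh-NC replicate 3 and sh-CLGN replicate 3, lay close to the other group without overlap. The log2 change was 0.25 (SE 0.0680, limma adjusted p = 0.0112), and over the alternatives it stayed called, between 0.14 and 0.54. Reads of OSTC could be shared with its 6 annotated pseudogenes. These had at most 4 reads in a library, but this cannot show whether reads were shared. Reads that fit OSTC and a pseudogene alike may be missing from both counts. As a ratio of FPKM chosen after the values were seen and not tested, STT3A to OSTC was 0.719 ± 0.0571 in sh-NC against 0.368 ± 0.0316 in sh-CLGN (SD, n = 3).

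KRTCAP2 (ENSG00000163463; chromosome 1, 155169408 to 155173475, minus strand), the other subunit particular to the STT3A complex, was listed at 0.599, 0.430 and 1.05 FPKM in sh-NC against 1.39, 1.42 and 1.54 FPKM in sh-CLGN, from 24 to 95 reads per library. Its log2 change of 0.55 (SE 0.139, limma adjusted p = 0.00867) understates the change of such a low gene. It was 1.04 with a pseudocount of 0.1, 1.13 with voom on recovered reads, 0.98 as TPM and 0.32 after quantile normalization, called in each, and the gene would have passed the filter of 1 FPKM in 3 libraries through the sh-CLGN libraries alone. In the annotation, 404 of its 486 coding bases (83.1%) lie in exons of AL713999.1 on the same strand, which was listed at 0 reads in every library. Reads that fit both genes may be missing from these counts, so the level and the change of KRTCAP2 are uncertain.

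MAGT1 (ENSG00000102158; chromosome X, 77826364 to 77895593, minus strand), an oxidoreductase subunit of the STT3B complex, was at 16.5, 16.8 and 18.4 FPKM in sh-NC against 15.8, 16.3 and 15.9 FPKM in sh-CLGN. The knockdown libraries were all slightly below the controls, from 1119 to 1381 reads per library. The log2 change was -0.10 (95% interval -0.22 to 0.03, SE 0.0548, limma adjusted p = 0.157), so a difference was not shown. It was 0.025 as TPM, 0.12 after quantile normalization and 0.088 with scaling by read totals, none of them called, and -0.19 with the GC trend removed, where MAGT1 was called lower (adjusted p = 0.00193). The FPKM ratio of STT3B to MAGT1, also chosen after the values were seen and not tested, was 7.64 ± 0.0959 in sh-NC against 9.22 ± 0.214 in sh-CLGN (SD, n = 3).

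TUSC3 (ENSG00000104723), the oxidoreductase that can take the place of MAGT1, had 0 reads in each sh-NC library and 1, 0 and 2 reads in sh-CLGN. A floor of 3 reads, which covers counting error only, corresponds to 0.0341 to 0.0414 FPKM, or 0.204% to 0.251% of the MAGT1 level in the same library. TUSC3 was not detectable above this floor in either group, and no fold was computed.

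The shared base subunits divided into falling and rising genes. DDOST (ENSG00000244038; chromosome 1, 20651767 to 20661544, minus strand), which holds the catalytic subunit in the complex, was at 164, 159 and 145 FPKM in sh-NC against 112, 108 and 113 FPKM in sh-CLGN. The groups were far apart relative to their spread. The mean went down from 156 ± 9.82 to 111 ± 2.75 FPKM (SD, n = 3), by -0.49 on the log2 scale (SE 0.0569, limma adjusted p = 0.000167), and DDOST stayed called lower in each alternative, between -0.54 and -0.15. The nearest value to 0 came from quantile normalization. DDOST shares 427 of its 2721 exonic bases (15.7%), none of them coding, with PINK1-AS on the same strand, which was at 1.83 to 1.97 FPKM in sh-NC against 2.95 to 3.28 FPKM in sh-CLGN.

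RPN1 (ribophorin I, ENSG00000163902; chromosome 3, 128619970 to 128681075, minus strand), which helps to present membrane proteins to the catalytic site, was at 144, 141 and 139 FPKM in sh-NC against 115, 116 and 112 FPKM in sh-CLGN. RPN2 (ribophorin II, ENSG00000118705; chromosome 20, 37178410 to 37241623, plus strand), a structural subunit of the membrane base, was at 245, 253 and 241 FPKM in sh-NC against 212, 214 and 210.3 FPKM in sh-CLGN. Replicates lay close together, and the groups did not overlap for either ribophorin. RPN1 changed by -0.30 (SE 0.0423, limma adjusted p = 0.000433) and RPN2 by -0.21 (SE 0.0441, limma adjusted p = 0.00326). Their direction depended on scaling. RPN1 was at 0.015 after quantile normalization (adjusted p = 0.756) and -0.11 with scaling by read totals (adjusted p = 0.0526), and was still called lower as TPM (-0.18) and with the GC trend removed (-0.13). RPN2 was called in none of these settings, at 0.10 after quantile normalization, -0.02 with read totals, -0.09 as TPM and -0.04 with the GC trend removed.

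DAD1 (ENSG00000129562; chromosome 14, 22564905 to 22589269, minus strand), a small shared subunit named as a defender against cell death, went the other way, at 186, 157 and 161 FPKM in sh-NC against 209, 211 and 209 FPKM in sh-CLGN. The knockdown libraries agreed closely, and among the controls replicate 1 was nearest to them. On average DAD1 went up from 168 ± 15.7 to 209 ± 1.10 FPKM (SD, n = 3), by 0.32 on the log2 scale (SE 0.0677, limma adjusted p = 0.00366). DAD1 was called higher under each alternative, from 0.28 to 0.64.

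OST4 and TMEM258, the remaining small subunits of the shared base, complete the enzyme. OST4 (ENSG00000228474; chromosome 2, 27070472 to 27071773, minus strand) was at 45.4, 37.2 and 45.1 FPKM in sh-NC against 59.7, 52.6 and 52.2 FPKM in sh-CLGN, and rose by 0.36 on the log2 scale (SE 0.0884, limma adjusted p = 0.00756). It shares 151 of 719 exonic bases (21.0%) with AGBL5 on the opposite strand, which was at 6.06 to 6.59 FPKM in sh-NC against 2.89 to 3.06 FPKM in sh-CLGN. Without a stated strand setting, reads from such partners cannot be told apart. TMEM258 was at 49.2, 41.7 and 42.3 FPKM in sh-NC against 40.8, 37.6 and 41.3 FPKM in sh-CLGN. It shares 633 of 3068 exonic bases (20.6%) with other genes, chiefly MYRF and FEN1 on the opposite strand. MYRF was at 17.8 to 21.1 FPKM in sh-NC against 8.52 to 9.79 FPKM in sh-CLGN. FEN1 was at 124 to 134 FPKM in sh-NC against 96.7 to 98.2 FPKM in sh-CLGN, so the same limit holds for TMEM258. TMEM258 was not called (-0.15, SE 0.0737, limma adjusted p = 0.111, 95% interval -0.32 to 0.02). Its sign turned under quantile normalization (0.14), read totals (0.043) and GC trend removal (0.020).

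**Figure D4:**
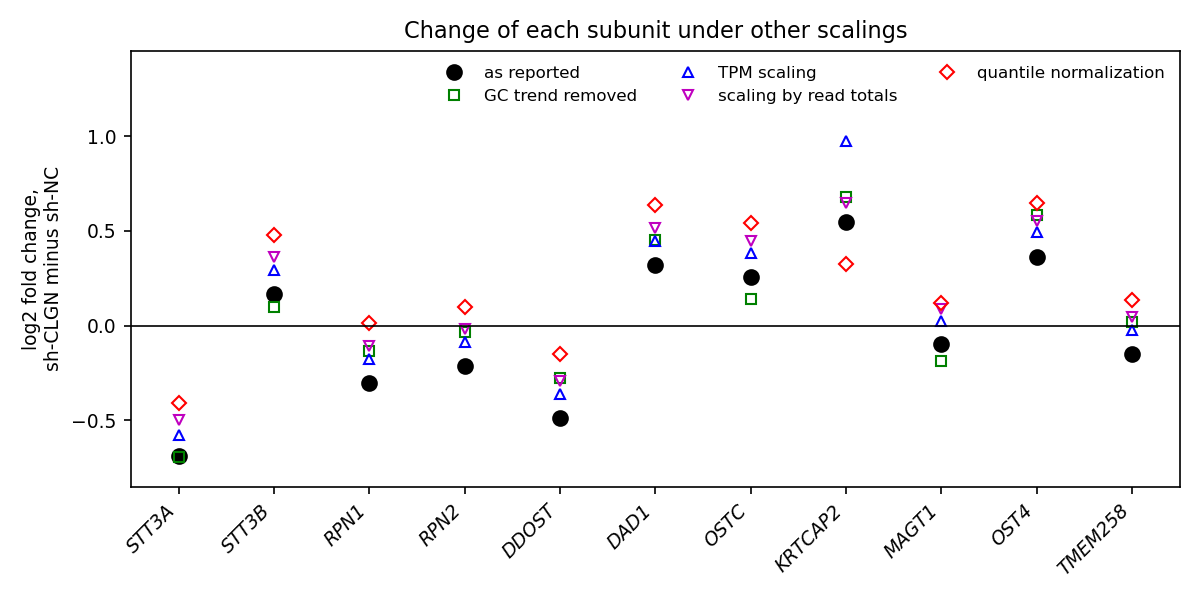
Log2 fold change of each OST subunit, sh-CLGN minus sh-NC, as reported (filled circles) and under 4 other scalings of the same 6 libraries (open symbols). STT3A and DDOST stay below 0 and STT3B, DAD1, OSTC, KRTCAP2 and OST4 above it under each scaling, while RPN1, RPN2, MAGT1 and TMEM258 cross 0 under at least 1 of them.

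The deposited scaling bears on these directions. The library size that the deposited FPKM imply was between 0.933 and 0.953 of the summed reads for sh-NC, and between 1.07 and 1.08 for sh-CLGN. Scaling by read totals moved the median log2 fold change of all genes by 0.165 and TPM by 0.205. Relative to the median of all genes with read totals, RPN1 was at -0.20, RPN2 at -0.11, STT3A at -0.59 and DDOST at -0.38, while DAD1 was at 0.43 and STT3B at 0.27. Relative to that median as TPM, RPN1 was at -0.30, RPN2 at -0.22 and MAGT1 at -0.10. After quantile normalization they lay above the median of all genes instead, at 0.031 for RPN1, 0.12 for RPN2 and 0.14 for MAGT1. GC content ranged among the tested subunits from 40.0% in OSTC to 55.3% in OST4. STT3A, at 43.8% GC, kept -0.69 with the GC trend removed, whereas DDOST, at 54.1% GC, moved to -0.28.

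The hairpin against CLGN could also act on other transcripts through its seed. Sites for the heptamers TACCACA and ATACCAC, taken from the hairpin target, were present in the longest annotated 3′ untranslated region of 15.1% of 10908 tested genes with such a region. Among the tested members with such a region MAGT1 alone held a site, 1 TACCACA, and STT3A, RPN1, RPN2 and DDOST held 0. TUSC3 held 1 of each.

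The steps around OST, together with OST4 and TMEM258 as a list of their own, were described with 58 genes in 6 lists. Of these genes 57 were tested. In all, 23 were lower, 17 higher and 17 not called, with a median log2 fold change of -0.05 against -0.08 over all genes. The shares of 40.4% lower and 29.8% higher lay near those of all tested genes, 39.0% and 26.7%, which are also the shares to read the counts of each step against. With scaling by read totals, 26.3% were lower and 45.6% higher (15 and 26 genes), beside 25.9% and 38.3% of all genes.

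Upstream, 24 genes assemble the lipid-linked sugar tree, and of the 23 tested 9 were lower, 7 higher and 7 not called (median -0.01), near the shares of all genes. ALG5, which makes dolichol phosphate glucose, rose by 1.33 on the log2 scale, from 3.88 ± 0.423 to 11.2 ± 0.669 FPKM (SE 0.0793, limma adjusted p = 7.16e-06). DPAGT1, which starts the tree on dolichol phosphate and is the target of tunicamycin, fell from 13.7 ± 0.601 to 7.29 ± 0.283 FPKM (-0.83, SE 0.0562, adjusted p = 1.25e-05). DOLPP1, which recycles the carrier after transfer, fell by 0.72 on the log2 scale. Of 9 genes of sugar donor synthesis, 4 were lower, 3 higher and 2 not called (median -0.16), beside the same 39.0% and 26.7%. GNPNAT1, an acetyltransferase on the way to UDP-GlcNAc, fell from 17.6 ± 1.92 to 7.26 ± 0.617 FPKM (-1.17, SE 0.0889, limma adjusted p = 2.10e-05). GFPT1, the entry enzyme of the same hexosamine pathway, rose by 0.61, and UGP2, which makes UDP-glucose, rose by 0.59. ALG5 and GNPNAT1 were the only listed genes past both thresholds.

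Alongside OST at the membrane, 11 translocon and TRAP genes gave 3 lower, 4 higher and 4 not called (median -0.01), beside 39.0% lower and 26.7% higher over all genes. TRAM1, a translocon partner of the entering chain, rose from 69.6 ± 5.10 to 120.2 ± 4.94 FPKM (0.78, SE 0.0629, limma adjusted p = 2.70e-05), and SSR3, a TRAP subunit, rose by 0.51. SEC61A1, the pore of the translocon, fell from 175 ± 5.37 to 130.1 ± 0.583 FPKM (-0.42, SE 0.0441, limma adjusted p = 9.15e-05), a call that was lost after quantile normalization (-0.10). Of 5 signal peptidase genes, 3 were lower, 1 higher and 1 not called (median -0.32), beside those same shares. Its alternative catalytic subunits differed in direction, with SEC11A higher (0.46) and SEC11C lower (-0.56), while the accessory subunit SPCS1 fell by 0.32 and lost its call with read totals (-0.15).

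Downstream, 7 genes trim or read the attached glycan, and 4 were lower, 1 higher and 2 not called (median -0.15), beside 39.0% and 26.7% of all genes. GANAB, the catalytic subunit of glucosidase II, rose from 136 ± 5.69 to 193 ± 4.89 FPKM (0.50, SE 0.0493, limma adjusted p = 6.92e-05). UGGT1, which adds glucose back to misfolded glycoproteins so that they rebind lectin chaperones, fell by 0.53, and MAN1B1, a mannosidase of glycoprotein disposal, fell by 0.74.

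**Figure D5:**
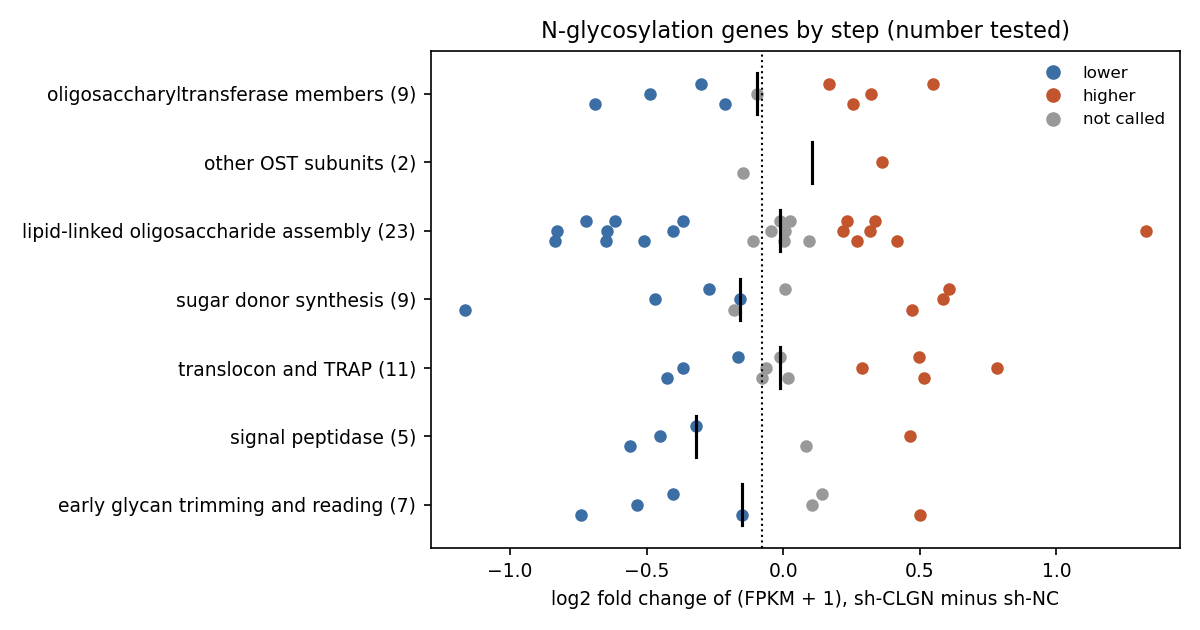
Log2 fold change of (FPKM + 1), sh-CLGN minus sh-NC, of each tested gene of the OST members and of 6 other lists, coloured by call. Of the 6 lists 1 holds OST4 and TMEM258, and the rest are neighbouring steps. A black bar marks the list median and a dotted line the median of all tested genes (-0.08). Points lie on both sides of 0 in every row. RPN1, RPN2, MAGT1 and TMEM258 change side under at least 1 other scaling.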

How the data were processed

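Expression was taken from the FPKM table that the authors deposited, which covers 3 sh-NC and 3 sh-CLGN libraries made with a NEBNext Ultra kit. The submitters' processing notes name HISAT2 2.0.5, featureCounts and GRCh38, and no strand setting was given in the sources used here. Positions of all 58735 genes equalled GENCODE 29. FPKM times gene length fell on whole reads for 100% of values within 0.01 of a read, which gave the reads per gene and 0.0589 to 0.0717 FPKM per read on a gene of 1 kb. Columns named KD were matched to the sh-CLGN samples by their titles. No 2 libraries agreed within sampling noise (chi-square per gene 2.04 to 7.14 within groups).

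The 13074 genes that reached 1 FPKM in 3 or more libraries were fitted on log2(FPKM + 1) in limma (version 3.58.1, R version 4.3.3). The fit used moderated variances (eBayes, trend), no covariate, and two-sided p-values with Benjamini-Hochberg adjustment over all of them. A gene counted as lower or higher where its adjusted p did not exceed 0.05. Fold changes on this scale understate those of low genes. The fit was also run on simulated reads with a single fixed dispersion for all genes and independent libraries. These settings may differ from the real libraries, and no result here rests on that run. Alternatives were a pseudocount of 0.1, no filter, TPM scaling, quantile normalization, scaling by read totals, voom on recovered reads, a replicate block, removal of a lowess GC trend (span 0.3, GC known for 99.95% of tested genes) and leaving out each library. Ratios, promoters and plots were made in Python (3.11.15), using pandas (2.3.3), numpy (2.4.6), matplotlib (3.10.9) and scipy (1.17.1).

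The members and lists were chosen with earlier results of these data known. Named genes are the members, CLGN, OST4, TMEM258 and the 3 called genes with the smallest adjusted p of each other pathway list. List genes whose log2 fold change reached 1 in size and annotated overlap partners are also named. Cell type markers were planned as counts and summed levels, and those named singly were chosen after their values were seen. Heptamers were searched in annotated 3′ untranslated regions of at least 50 bases.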

Additional observations from a re-analysis of the deposited data

How the results depend on the processing

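Under 14 alternatives to the reported fit, CLGN, STT3A, DDOST, DAD1, OSTC, KRTCAP2 and OST4 kept their direction and their call. CLGN ranged from -1.44 to -1.12 over the settings with all libraries and from -1.39 to -1.24 without a library. The members called lower numbered 2 with quantile normalization and 2 with scaling by read totals in place of 4, and 4 to 4 without a library, and those called higher numbered 3 to 4. The pathway genes called lower numbered 15 with quantile normalization and 15 with read totals in place of 23 (20 to 22 without a library), and those called higher 26 with read totals in place of 17 (14 to 17). Over all genes, TPM scaling gave 5604 higher and 3994 lower calls and read totals 5048 and 3407, in place of 3496 and 5102. Quantile normalization gave 3954 higher and 4251 lower calls. Without a library the counts were 2534 to 3579 higher and 4561 to 5049 lower. The median of all genes moved by 0.205 with TPM, 0.165 with read totals and 0.108 without the filter. Signs turned for RPN1 (0.015) and RPN2 (0.10) with quantile normalization, for MAGT1 as TPM (0.025), with quantile normalization (0.12) and with read totals (0.088), and for TMEM258 with quantile normalization (0.14), read totals (0.043) and GC trend removal (0.020). STT3B lost its call without the filter (0.17, limma adjusted p = 0.0933). The STT3A to STT3B ratio stayed between -0.94 and -0.79, whereas their sum differed by -0.011 as deposited, 0.12 as TPM and 0.18 with read totals, settings added for it after seeing the data. Beyond the construction of each scaling, the cause was not tested. The planned TUSC3 to MAGT1 ratio and its alternatives were not run, since TUSC3 was at 0 reads in 4 of 6 libraries.

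Deviations from the group means correlated at -0.02, -0.05 and -0.15 between libraries of the same replicate number. Between libraries of other numbers they correlated at -0.08 to 0.11. Deviations centred within groups of 3 are tied to each other, so these values cannot decide whether replicate numbers mark pairs. With the replicate block, 4 members were lower and 3 higher, beside 36.4% and 25.1% of all genes. STT3B lost its call there (0.17, limma adjusted p = 0.0811). Few reads limit TUSC3 and KRTCAP2, with at most 2 and 95 per library. For KRTCAP2, reads that also fit an overlapping gene may be missing, so depth need not be the limit.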
